A study of Vitis vinifera with 6 samples.

Results

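The 209 genes described here are those whose identifiers begin VIT_18s0041g, the scaffold of chromosome 18 that carries the seedlessness gene AGL11, with AGL11 itself (VIT_18s0041g01880) left out. They were chosen by identifier alone, from 29548 genes in the deposited table, and none of their rows held an unreadable value. RNA came from berries 10 to 12 mm across, taken 4 weeks after anthesis from F1 plants of a cross between Red Globe and Crimson Seedless, both table grapes, grown in the same field and grafted on the same rootstock. The seedless class (genotype sdi+) was seed traces of the hybrids 669-60, 670-17 and 675-17, and the seeded class (genotype sdi-) was seeds of the hybrids 665-17, 671-19 and 677-06. In this order they are replicates 1 to 3 of their class, and values by library are always given in this order. For every library the seed content of 12 to 50 fruits of a single hybrid was pooled. Each hybrid has a single library, so the spread within a class mixes differences between hybrids with those between pools and libraries. Genotype, phenotype and tissue change together across the classes and cannot be told apart.

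Seedlessness of the stenospermocarpic kind, common in table grapes, begins with normal fertilization, after which embryo and endosperm growth stops and the seed coat does not harden. The trait is inherited largely through a dominant locus on chromosome 18, at which AGL11, a MADS-box transcription factor of the ovule identity class needed for seed coat development, is the established candidate. Genes that lie close together on a chromosome tend to be inherited together, so progeny sorted by such a trait often share the parental chromosome segment around the locus. The deposited values hold 1 number per gene and library and do not separate the parental alleles. Identifier numbers rise in steps of 10 along the scaffold, from 10 to 2470, and 161 genes came before AGL11 and 48 after it. The sources used here do not pair these identifiers with names, so no function is given for any gene other than AGL11.

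Expression is given as RPKM, reads per kilobase of gene model scaled to the library's total reads. Those totals were 6576771 to 9267652, worked out from the size of a single read among low values. Of the seedless libraries, replicate 1 stood apart: across genes it correlated with replicates 2 and 3 at 0.847 and 0.862 on the log2(RPKM + 1) scale, while those correlated with each other at 0.944 and the seeded libraries among themselves at 0.959 to 0.961. These correlations are across genes and are a description. The labelled tissues could not be checked against marker genes, because the identifiers carry no names.

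Much of the scaffold was silent or little expressed in both tissues. Of the 209 genes, 50 were listed at 0 in all 6 libraries (23.9%, against 16.9% of all genes in the table), and 72 more were above 0 somewhere but did not reach 1 RPKM in at least 3 libraries. The remaining 87 (41.6%, against 63.5% of all genes) were tested. Only 4 genes averaged above 100 RPKM over the 6 libraries, 36 averaged 10 to 100 RPKM and 52 averaged 1 to under 10. A stretch with few tested genes, picked out after the values were seen, ran from VIT_18s0041g00750 to VIT_18s0041g01210. It held 37 genes, of which 15 were listed at 0 throughout and 3 were tested.

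**Figure D1:**
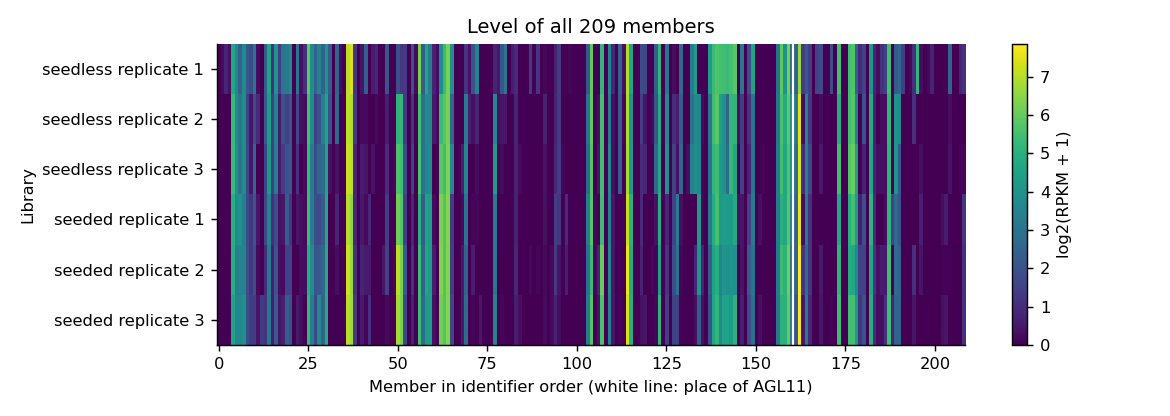
Level of each of the 209 genes as log2(RPKM + 1), by library (rows) and in identifier order (columns), with the place of AGL11 marked by a white line. Expressed genes alternate with dark stretches, and most columns look alike in all 6 libraries. The longest run of genes under 1 RPKM in every library held 8 genes.

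The 5 most abundant genes of the scaffold were expressed in every library. VIT_18s0041g01900, which lies 2 identifier steps after AGL11, stood at 98.9, 182 and 170.5 RPKM in the 3 traces and at 193.3, 231.1 and 219.8 RPKM in the 3 seed libraries. Every trace was thus below every seed library, with seedless replicate 1 lowest, but the difference did not pass (log2 fold change -0.56, SE 0.26, limma adjusted p = 0.191). VIT_18s0041g01350 had 122.8, 121.4 and 113 RPKM in traces and 147.3, 195.5 and 166.7 RPKM in seeds, again without overlap and without passing (log2 fold change -0.50, limma adjusted p = 0.0784). VIT_18s0041g00420 stood at 139.6 ± 5.80 RPKM in traces and 138.1 ± 15.9 RPKM in seeds (SD, n = 3 each), and the classes overlapped. VIT_18s0041g00430 leaned the other way, at 144.4 ± 26.7 against 98.8 ± 6.78 RPKM (SD, n = 3 each), and did not pass (log2 fold change 0.53, limma adjusted p = 0.0883). VIT_18s0041g00730 stood at 76.9 ± 2.95 RPKM in traces and 84.9 ± 1.12 RPKM in seeds (SD, n = 3 each). Every trace was below every seed library, and the difference did not pass (log2 fold change -0.14, limma adjusted p = 0.432).

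Traces were compared with seeds to find which genes of the locus region differ where the seed stops growing. Of the 87 genes tested, 13 changed: 11 rose and 2 fell in seedless traces (limma on log2(RPKM + 1), adjusted p under 0.05 over all 18749 genes tested). That is 14.9% of the scaffold genes against 12.3% of all genes tested, a share near the background. By direction, 12.6% rose, against 7.18% of all genes tested, and 2.3% fell, against 5.1%. At an adjusted p under 0.01 there were 7 changed genes, all of them rises, or 8.05% against 1.87% of all genes tested. Of these 7, 5 reached the filter through the traces alone, where they are high, so the filter in part fixes their direction and their share. With at least a 2-fold change, 10 rose and 1 fell, where the background was 6.16% and 2.79%. The median log2 fold change was 0.19 over the 87 genes and -0.04 over all genes tested, and 54 of the 87 were above 0. The classes did not overlap for 36 genes (41.4%, against 39.5% of all genes tested), of which 25 were higher in traces (28.7%, against 19.0%) and 11 lower (12.6%, against 20.5%). An exact permutation test of 3 against 3 libraries cannot give a two-sided p below 0.1 for a single gene.

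The count of changed genes depended on the libraries. Leaving out seedless replicate 1 gave 21 (13 rises and 8 falls). Leaving out a seeded library, replicate 1, 2 or 3, gave 8, 7 and 8. The background moved as well, to 15.5% without that seedless library and to 3.58%, 2.29% and 2.39% without the seeded ones. The filter also acts on genes that are low in a single class: 8 of the 87 (9.2%, against 3.17% of all genes tested) reached 1 RPKM in every seedless library and in no seeded one, and 1 gene (1.15%, against 0.496%) did the reverse. In whole seed content, fewer cells of a type and less RNA per cell cannot be told apart.

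**Figure D2:**
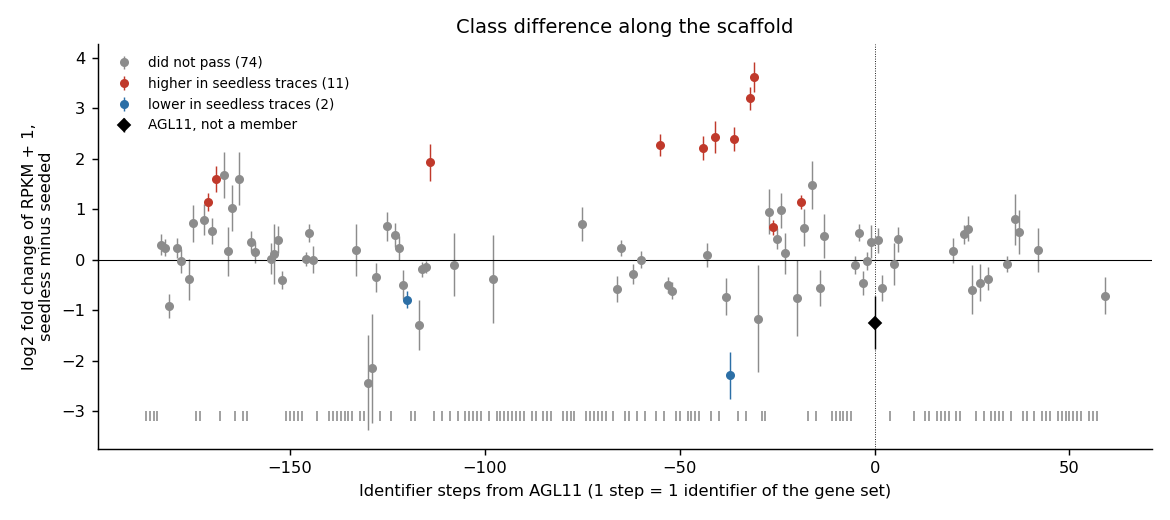
Log2 fold change of RPKM + 1 (seedless minus seeded, bars 1 SE) of the 87 tested genes against their distance from AGL11 in identifier steps; grey ticks at the bottom mark the genes that were not tested. The 11 rises (red) and 2 falls (blue) all lie before AGL11 (black), as do 72 of the 87 tested genes. The 6 genes with a log2 fold change above 2 lie 31 to 55 steps before AGL11.

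By place, all 13 changed genes lay before AGL11, among 72 tested genes (18.1%, against 12.3% of all genes tested). Of the 13, 9 lay between VIT_18s0041g01330 and VIT_18s0041g01690, where 19 of 32 genes were tested. This stretch was delimited after the values were seen, so its count is a description. In it 8 rose and 1 fell, or 47.4%, against 12.3% of all genes tested. The rest of the scaffold, which lacks those calls by construction, had 5.88% of its 68 tested genes called. Blocks of 50 identifier steps were set without regard to the values. From the first block to the last, the changed genes numbered 2 of 24, 2 of 15, 3 of 12, 6 of 25 and 0 of 11. These are 8.33%, 13.3%, 25%, 24% and 0%, against 12.3% of all genes tested, and the blocks are small. The shares by place were not tested against each other. Of the 15 tested genes after AGL11, limma called none (against 12.3% of all genes tested). At an unadjusted limma p under 0.05 there were 2, beside 27 of all 87 tested genes of the scaffold. The voom fit on recovered reads called none of the 15 either, against 9.08% of all genes in that fit. Without seedless replicate 1, however, when 15.5% of all genes tested passed, 2 of these 15 did. These were VIT_18s0041g02240 (log2 fold change 1.42, limma adjusted p = 0.00668) and VIT_18s0041g02470 (-1.06, limma adjusted p = 0.0316). The longest run of neighbouring tested genes called in the same direction held 3 rises, VIT_18s0041g01520, VIT_18s0041g01560 and VIT_18s0041g01570.

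The clearest differences were in 5 genes of that stretch that were expressed in each trace and near or at 0 in each seed library. VIT_18s0041g01560 had 8.53, 6.53 and 9.65 RPKM in traces and was listed at 0 in all 3 seeded libraries. It was the single gene of the scaffold at 0 in every library of a class and at 1 RPKM or more in every library of the other (0.478% of 209 genes, against 0.308% of the table). No gene of the scaffold was at 0 in every trace and at 1 RPKM or more in every seed library, against 0.0102% of the table. Its log2 fold change of 3.19 (SE 0.23) passed with a limma adjusted p of 0.00369; a linear fold cannot be given against 0. Its neighbour VIT_18s0041g01570 had 19.1, 12.4 and 13.6 RPKM in traces and 0, 0.74 and 0.23 RPKM in seeds. The recovered reads behind these values were 80, 54 and 52 in traces and 0, 4 and 1 in seeds. The log2 fold change was 3.62 (SE 0.29, limma adjusted p = 0.00369).

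Of the same kind, VIT_18s0041g01520 had 5.55, 3.95 and 5.34 RPKM in traces and 0.24, 0.101 and 0.062 RPKM in seeds, on 85, 63 and 75 reads against 4, 2 and 1. The log2 fold change was 2.38 (SE 0.23, limma adjusted p = 0.00542). VIT_18s0041g01440 had 4.37, 3.5 and 5.02 RPKM in traces and 0.29, 0.061 and 0.076 RPKM in seeds. Its log2 fold change was 2.21 (SE 0.24, limma adjusted p = 0.00615). VIT_18s0041g01330, the member of this set farthest from AGL11 at 55 identifier steps, had 4.47, 3.68 and 3.94 RPKM in traces against 0, 0.027 and 0.102 RPKM in seeds. These rest on 126, 108 and 102 reads in traces and 0, 1 and 3 in seeds, and the log2 fold change was 2.27 (SE 0.22, limma adjusted p = 0.00534). On the log2(RPKM + 1) scale the change of such low genes is understated. All 5 reached the filter through the traces alone, and for the 4 with recovered reads the seed values rest on 0 to 4 reads, near the limit of detection.

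The 3 traces lay close together for these genes, a closeness that the call itself favours. Their highest trace value was 1.22 to 1.54 times the lowest, and seedless replicate 1 was the highest trace for 3 of them. Each of the 5 passed in every alternative in which it was tested, including those without seedless replicate 1, where the log2 fold changes were 2.19 to 3.44. VIT_18s0041g01470, in the same stretch, was expressed in both tissues, with 7.26, 12.1 and 15.2 RPKM in traces and 0.82, 1.3 and 1.7 RPKM in seeds. Its mean was 9.04 times higher in traces, with a log2 fold change of 2.43 (SE 0.31, limma adjusted p = 0.00911). VIT_18s0041g01690, 19 identifier steps before AGL11, was higher still in level, at 44.3, 35.7 and 37.7 RPKM against 18.5, 15.6 and 17.5 RPKM. The means differed 2.28-fold, with a log2 fold change of 1.14 (SE 0.15, limma adjusted p = 0.00911). Both passed in all 15 alternatives.

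**Figure D3:**
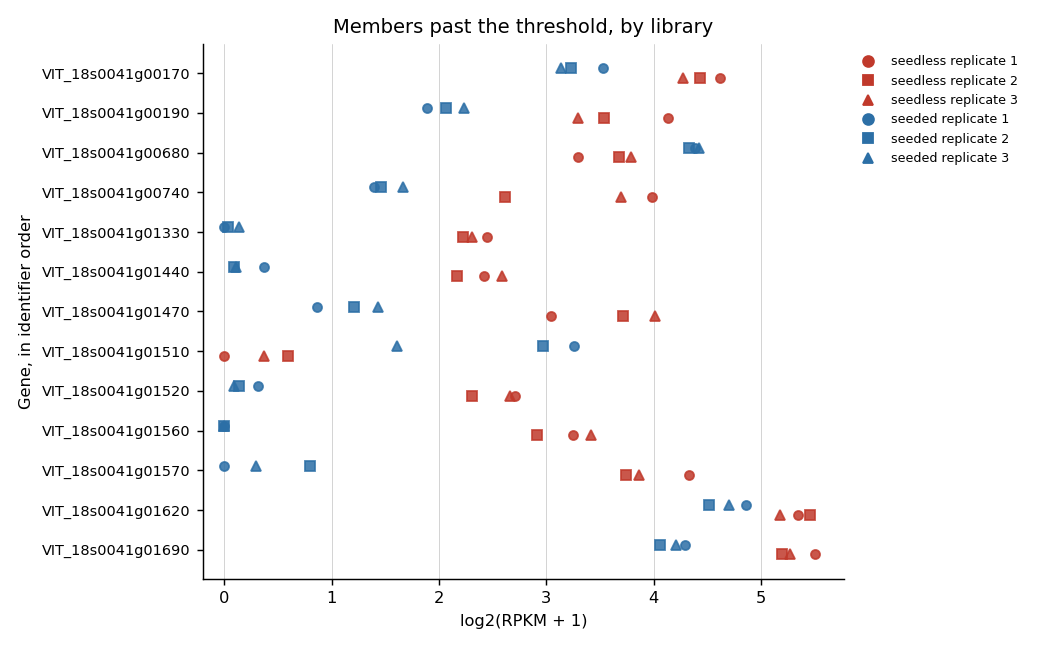
Values of the 13 changed genes in each library as log2(RPKM + 1), in identifier order, with seedless libraries in red and seeded libraries in blue. The classes are separate for every gene, and for VIT_18s0041g01330, 01440, 01520, 01560 and 01570 the seed libraries sit at or near 0 while the 3 traces lie close together.

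The other changes of the stretch were less firm. VIT_18s0041g01510, which lies between the rising genes VIT_18s0041g01470 and VIT_18s0041g01520, went the opposite way. It had 0, 0.51 and 0.29 RPKM in traces, on 0, 2 and 1 reads, and 8.57, 6.81 and 2.04 RPKM in seeds, on 35, 33 and 8 reads. The fall passed (log2 fold change -2.29, SE 0.47, limma adjusted p = 0.0287), but it was lost in 6 of 14 alternatives, among them voom on recovered reads (limma adjusted p = 0.0715, range over the alternatives 0.0169 to 0.112). VIT_18s0041g01620 rose modestly, from 25 ± 3.09 RPKM in seeds to 39.3 ± 3.83 RPKM in traces (SD, n = 3 each). Its log2 fold change of 0.64 (SE 0.15) gave a limma adjusted p of 0.0419, passed in 7 of 15 alternatives and did not pass when any single library was left out (0.0522 to 0.139).

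Genes with no call stood among these. VIT_18s0041g01450, at 35.4, 28.1 and 25.6 RPKM in traces and 28.7, 20.6 and 35.2 RPKM in seeds, lies 1 step after VIT_18s0041g01440, and its classes overlapped. VIT_18s0041g01580, the next identifier after VIT_18s0041g01570, was listed at 0 in seedless replicate 1, at 10.5 and 11.5 RPKM in the other traces, and at 17.8, 16.4 and 4 RPKM in seeds. These genes were picked out for their place after their values were seen, and neither passed (limma adjusted p = 0.812 and 0.488).

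Farther from AGL11, 4 more genes changed. VIT_18s0041g00170 had 23.5, 20.6 and 18.3 RPKM in traces and 10.5, 8.39 and 7.78 RPKM in seeds, a 2.34-fold higher mean in traces (log2 fold change 1.14, SE 0.18, limma adjusted p = 0.014). VIT_18s0041g00190 had 16.5, 10.6 and 8.79 RPKM against 2.7, 3.18 and 3.71 RPKM (log2 fold change 1.59, SE 0.26, limma adjusted p = 0.0164). The stretch between VIT_18s0041g00170 and VIT_18s0041g00250 was again delimited after the values were seen, so its counts are a description. All 7 tested genes there had log2 fold changes above 0 (against 47.4% of all genes tested). Of these genes, 6 had no overlap between the classes (against 39.5%). They include VIT_18s0041g00210, at 7.46, 2.86 and 1.62 RPKM against 0.39, 0.16 and 0.61 RPKM, and VIT_18s0041g00250, at 7.44, 2.13 and 1.18 RPKM against 0.38, 0 and 0.49 RPKM. In both, seedless replicate 1 was the highest trace by far, and neither passed (limma adjusted p = 0.0582 and 0.0907). Without that library VIT_18s0041g00210 passed, with a limma adjusted p of 0.0421 (log2 fold change 1.21).

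VIT_18s0041g00740 rose, with 14.8, 5.12 and 12 RPKM in traces and 1.63, 1.75 and 2.16 RPKM in seeds. Its mean was 5.75 times higher in traces (log2 fold change 1.93, SE 0.37, limma adjusted p = 0.0246), with replicate 2 the lowest of the traces. VIT_18s0041g00680 fell, from 19.9, 19.1 and 20.4 RPKM in seeds to 8.83, 11.8 and 12.9 RPKM in traces. The log2 fold change was -0.79 (SE 0.17, limma adjusted p = 0.035). Without 1 seeded library at a time, VIT_18s0041g00170 lost the threshold in 2 of 3 fits and VIT_18s0041g00190, VIT_18s0041g00740 and VIT_18s0041g00680 in all 3, over an adjusted p of 0.0598 to 0.129.

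Neither AGL11 nor the genes beside it passed. AGL11 had 47.5, 197.1 and 177 RPKM in traces and 271.7, 288.4 and 286.9 RPKM in seeds, so every trace was below every seed library, with seedless replicate 1 far below the rest. Its log2 fold change was -1.24 (SE 0.52, limma adjusted p = 0.161). It passed without seedless replicate 1 (log2 fold change -0.59, limma adjusted p = 0.0373). None of the 5 nearest tested genes on either side passed by limma or by voom, in any alternative run. Over all genes tested, 12.3% passed by limma and 9.08% by voom, and so few genes cannot be set apart from those shares. The sides differ in reach, 5 identifier steps before AGL11 and 20 after it. VIT_18s0041g01690, which changed, lies 19 steps before AGL11 and so within the longer reach. Of the 10 nearest genes, 3 had no overlap between the classes, against 39.5% of all genes tested. VIT_18s0041g01840 and VIT_18s0041g01940 were higher in traces (against 19.0%), and VIT_18s0041g01900 was lower (against 20.5%). VIT_18s0041g01840 had 58, 47.4 and 43.7 RPKM in traces and 30.2, 39.7 and 31.8 RPKM in seeds (log2 fold change 0.54, SE 0.17, limma adjusted p = 0.0862).

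The genes directly next to AGL11 overlapped between the classes. VIT_18s0041g01870, the step before it, had 5.73, 13 and 12.5 RPKM in traces and 9.04, 5.94 and 7.67 RPKM in seeds (log2 fold change 0.36, SE 0.33). VIT_18s0041g01890, the step after it, had 4.39, 7.79 and 6.2 RPKM in traces and 4.92, 4.9 and 3.42 RPKM in seeds (log2 fold change 0.38, SE 0.25). In both, seedless replicate 1 was the lowest trace, as it was for AGL11. The others, VIT_18s0041g01830, VIT_18s0041g01850, VIT_18s0041g01860, VIT_18s0041g01930 and VIT_18s0041g02080, had log2 fold changes of -0.47 to 0.18. A fold change that did not pass does not show that a gene was equal in both tissues.

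**Figure D4:**
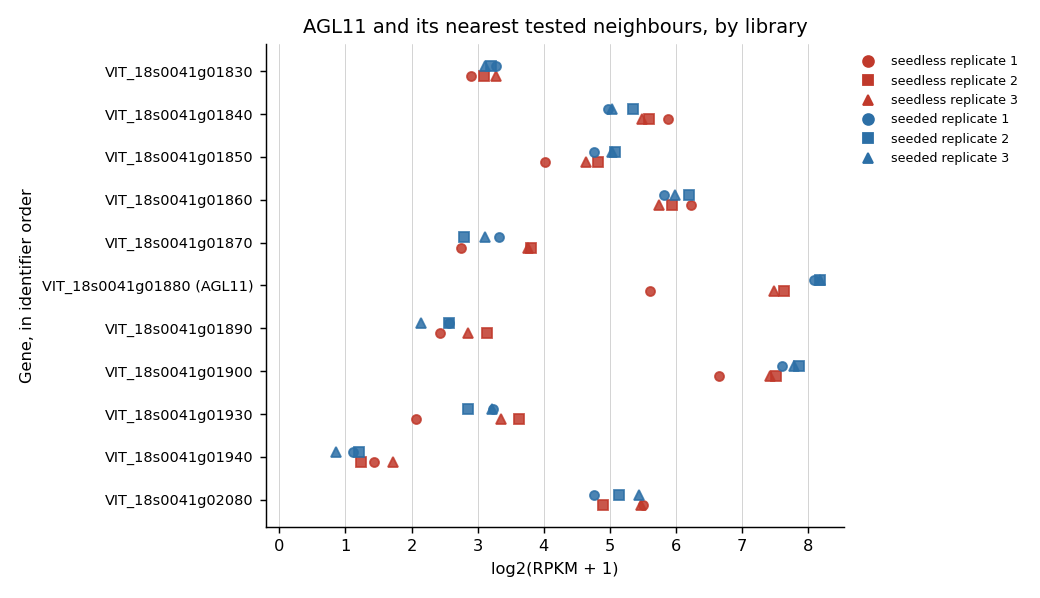
AGL11 and the 5 nearest tested genes on either side, in identifier order, as log2(RPKM + 1) in each library (seedless red, seeded blue). AGL11 and VIT_18s0041g01900 have every trace below every seed library, with seedless replicate 1 lowest, while most of the other genes overlap between the classes.

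In part of the scaffold, seedless replicate 1 stood apart from the other traces, also among genes whose classes did not overlap. Among the 87 tested genes, that library was over 2-fold above both other traces for 14 (16.1%, against 9.25% of all genes tested) and over 2-fold below both for 12 (13.8%, against 7.17%). The neighbours VIT_18s0041g00580 and VIT_18s0041g00590 were both far lower in that library than in the other traces. VIT_18s0041g00580 had 2.79, 33.6 and 49.9 RPKM in traces and 69.9, 132.6 and 111.3 RPKM in seeds, and VIT_18s0041g00590 had 1.37, 37.4 and 42.8 RPKM against 53.9, 78.8 and 78.5 RPKM. For both, every trace was below every seed library, and neither passed (log2 fold change -2.44, limma adjusted p = 0.134, and -2.15, limma adjusted p = 0.226). Without seedless replicate 1 these were -1.28 and -0.78, and VIT_18s0041g00580 passed (limma adjusted p = 0.0433 and 0.0531).

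VIT_18s0041g00710 showed the same order, at 12.9, 40.2 and 56.6 RPKM in traces and 78.6, 81.2 and 72.5 RPKM in seeds. The log2 fold change was -1.29 (limma adjusted p = 0.134), and -0.69 without seedless replicate 1 (limma adjusted p = 0.0485). VIT_18s0041g01720, 16 identifier steps before AGL11, leaned upward with 7.54, 1.65 and 1.88 RPKM in traces and 0.4, 0.33 and 0.62 RPKM in seeds. It did not pass (log2 fold change 1.48, limma adjusted p = 0.0891), but passed without seedless replicate 1 (0.94, limma adjusted p = 0.0465). Of 209 genes, 12 were above 0 in seedless replicate 1 and listed at 0 in the other 5 libraries (5.74%, against 1.49% of the table). Most of these 12 were under 1 RPKM in that library, where a value rests on a few reads. The highest of these, singled out after its values were seen, was VIT_18s0041g02310 at 35.4 RPKM.

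**Figure D5:**
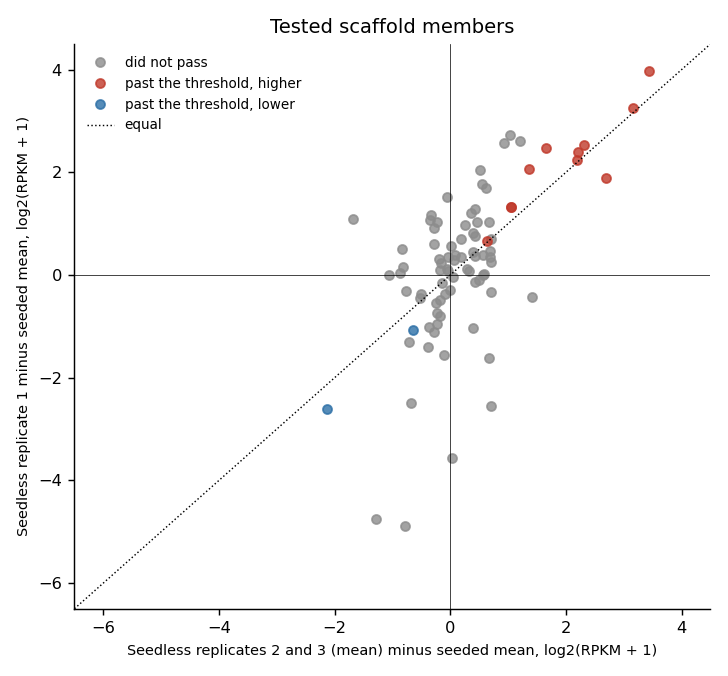
Each point is a tested gene of the scaffold: its difference from the seeded mean in seedless replicates 2 and 3 (x axis, their mean) and in seedless replicate 1 (y axis), both as log2(RPKM + 1). The changed genes (red and blue) lie near the dotted line of equality. Many grey points that did not pass lie far above or below it along the axis of seedless replicate 1. Spread among the traces makes a gene less likely to pass, so this contrast follows in part from the call itself.

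Set beside other scaffolds, the share of changed genes was not extreme at the main threshold. Among the 89 scaffolds with at least 50 tested genes, the scaffold with AGL11 included had 13 of 88 genes called (14.8%), the 24th highest share; the others ran from 1.54% to 31.1% with a median of 11.8%. At an adjusted p under 0.01 its 7 of 88 genes (7.96%) were the second highest share, where the others ran from 0% to 9.21% with a median of 1.5%. This rank rests on 7 genes, 5 of which reached the filter through the traces alone. The other chromosome 18 scaffolds of that size had 12.4%, 13.8%, 18.7% and 12.9% of genes called at the main threshold and 2.23%, 2.5%, 1.33% and 0.99% at the stricter threshold. These shares were not tested against each other, since neighbouring genes are not independent.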

How the data were processed

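Seed content of 6 grapevine hybrids was sequenced from TruSeq stranded mRNA libraries, per the labels' protocols. The values are RPKM, as deposited, in a table with a column for each library and 12X V1 gene identifiers, per the file headers. TopHat2 2.0.13, HTSeq 0.5.4p5 and edgeR 2.2.6 appear in the submitters' processing notes, with no role stated; the genome build, the strand setting and the treatment of reads shared by similar genes are not given in the sources used here. Genes with near-identical copies are therefore uncertain, and reads that differ from the reference allele may align less well. Of 29548 rows, 12 held a doubled decimal point, none on this scaffold, and were left out. Columns were assigned through the sample descriptions and classes through the labelled phenotype; the seeded samples carry Seededless in their titles, against all their other labels. The RefSeq gene list of assembly ASM3070453v1 puts AGL11 on chromosome 18 but shares 0 identifiers with the file; the identifier of AGL11 was recalled from the published gene catalogue.

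The test covered the 18749 genes that reached 1 RPKM in 3 or more libraries. Their log2(RPKM + 1) values went into limma 3.58.1 (R 4.3.3), with lmFit and a trended eBayes. Tests were two-sided, p-values were adjusted by Benjamini-Hochberg over the whole set, and the threshold was 0.05. The fit was tested on simulated data. It found 17 of 100 genes changed by a log2 fold change of 1 and 62 of 100 changed by 2. Of 18549 unchanged genes it called 1. In the simulation many true changes of such size thus did not pass. Far fewer genes were changed there than passed in the data (2303), which makes the adjusted threshold stricter in the simulation. The shares found therefore do not carry over to the data, where the share of true changes missed is not known. Read totals and whole reads were recovered by searching, for each gene, for the shortest model length that made all 6 values whole reads within 0.02 read; 21222 genes and 116 of the 209 on the scaffold were recovered with a chance match below 0.01. At these depths 3 reads on a model of 1 kb are worth 0.324 to 0.456 RPKM, depending on the library.

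The genes and lists were chosen with earlier results of these data known. Genes named by rule were those past the threshold (13), the 5 tested genes nearest AGL11 on either side and the 5 of highest mean RPKM. The rule also took the 3 largest rises and 3 largest falls that did not pass but did not overlap. It further took any gene at 0 in a whole class and at 1 RPKM or more in the other. Genes named otherwise are said to be, apart from VIT_18s0041g02240, VIT_18s0041g02470 and VIT_18s0041g01640, which are named for passing in an alternative fit. Alternatives changed the pseudocount (0.1, 0.5), the filter (none, 5 RPKM), the scaling (quantile or median), the library weights, a block on replicate number and the threshold (0.01, or at least 2-fold), or dropped each library in turn. A voom fit (limma) of the recovered reads was added after the data were seen.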

Additional observations from a re-analysis of the deposited data

How the results depend on the processing

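The count of changed genes (13) was 20 of 87 with library weights (where 19.2% of all genes tested were called) and 7 at an adjusted p under 0.01, and ranged over 7 to 21 across the fits that each dropped a library. Without seedless replicate 1, 12 of the 13 remained and 9 were added; without a seeded library no gene was added. All other settings kept the count at 9 to 15 (background 7.83% to 13.9% over the refits), with 10 to 12 rises except 8 under the filter of 5 RPKM. In the fits that each dropped a library, the calls before AGL11 numbered 7 to 19 and the median log2 fold change was 0.12 to 0.26. The genes without overlap numbered 39 to 54 there. With fewer libraries in a class the classes separate more easily. The share over all genes was not computed for those fits, so this higher count cannot be read as a trait of the scaffold. The log2 fold change of VIT_18s0041g00420 turned to -0.054 with median scaling, and lay between -0.036 and 0.112 with a library dropped, below 0 in 3 of those 6 fits. That of VIT_18s0041g01860 turned to 0.04 with quantile normalization and lay between -0.155 and 0.088 with a library dropped, above 0 in 2 of the 6. That of VIT_18s0041g01930 turned to 0.23 with library weights and lay between -0.389 and 0.386 with a library dropped, above 0 only without seedless replicate 1. None of these genes passed in any fit, and the cause was not tested. For the 33 genes named by rule, 485 refits were made; 437 gave the same direction and the same call, 29 lost the call, 10 gained it and 9 turned direction. Quantile and median scaling each lowered the median log2 fold change of all genes by 0.07, under which the rises still outnumbered the falls (12 to 3 and 10 to 4).

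With the replicate block 11 genes passed (12.6%, against 9.14% of all genes tested), all of them rises. VIT_18s0041g01510, VIT_18s0041g00680 and VIT_18s0041g01620 lost the threshold (limma adjusted p = 0.052, 0.0618 and 0.0745), and VIT_18s0041g01640 was added. The labels name another hybrid for each number, and after removal of the class means, libraries sharing a number correlated at 0.07, 0.18 and 0.1 over genes, so the numbers were not taken as pairs; each seedless library correlated best with the seeded library of its own number, a hint that the design does not bear out. Depth limits the genes under 1 RPKM, for which a value rests on a few reads.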
